A study of Mus musculus with 53 samples.

Results

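The transcripts of 10 genes of TGF-β and SMAD signalling were followed in mouse bone marrow-derived macrophages (BMDMs) stimulated with IL-4: the ligand gene Tgfb1, the activator gene Thbs1, the receptor genes Tgfbr1 and Tgfbr2, Smad2, Smad3, Smad4, Smad7, and the corepressor genes Skil and Tgif1. These 10 genes were taken by symbol from the 23847 loci of the expression tables. They were chosen from the pathway with the wild-type responses to IL-4 already known, Thbs1, Tgif1 and Smad3 among them. For that reason the wild-type IL-4 differences of these genes are given as a description without a test. Their time courses without IL-4 and the levels in Stat6-/- were also in view when the genes were chosen, and the WT controls enter the IL-4 differences as well, so the tests below on the 10 genes are not independent of the choice.

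TGF-β is secreted in a latent form, bound to its propeptide, and must be released before it can act. Thrombospondin 1, the product of Thbs1, is a matrix protein that can carry out this release. Free TGF-β binds the type II receptor, which phosphorylates the type I receptor, which in turn phosphorylates SMAD2 and SMAD3, and these enter the nucleus with SMAD4 to bind DNA. SMAD7 inhibits the receptor, and TGIF1 and SnoN, the product of Skil, are corepressors of SMAD complexes. In macrophages TGF-β is known as a restraint on inflammatory gene expression, and IL-4 is the cytokine of alternative polarization, acting largely through the transcription factor STAT6.

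The cells came from wild-type (WT) C57BL/6 mice and from Stat6-/- mice, a full-body knockout on the same background, aged 8 to 12 weeks. All groups shared 6 days of differentiation in L929 supernatant, a source of M-CSF. The 53 samples were unstimulated at 0 h or were kept for 1, 3, 6 or 24 h with 20 ng/ml IL-4 or without it. WT groups held 4 samples, or 3 for IL-4 at 24 h (replicates 2, 3 and 4), and Stat6-/- groups held 2. The study describes 4 individual WT animals, but the labels do not say what a replicate number marks in Stat6-/-, so p-values measure only the spread between these samples. Poly-A RNA was sequenced and expression is in FPKM, a count of fragments divided by transcript length and library size, so levels of different genes are compared per length.

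The tables held no counts, and the relative depth recovered from the lowest values ran from 0.706 to 1.553. Stat6 lay between 58.69 and 90.62 FPKM in the 35 WT samples and between 14.26 and 24.02 FPKM in the 18 Stat6-/- samples, so the transcript was lower but not absent under the knockout label. All 7 macrophage markers found in the tables were present, Csf1r, the M-CSF receptor, at 609.78 FPKM or more. The 7 fibroblast markers reached at most 0.39 FPKM. Of the platelet list, Itga2b, Gp1bb, Gp9 and Gp5 reached at most 0.66 FPKM, while Ppbp ran from 0.27 to 2.87 FPKM and Pf4 from 104.5 to 394.47 FPKM. Granulocyte markers were measured as well, S100a8 from 80.7 to 477.73 FPKM.

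The replicates of Stat6-/- stood apart from each other. Replicate 2 had more Smad3, Skil and Tgfbr2 and less Tgif1, Tgfb1 and Tgfbr1 than replicate 1 in all 9 groups. Smad3 ran from 1.09 to 2.49 FPKM in replicate 1 and from 4.4 to 6.17 FPKM in replicate 2. Skil ran from 6.35 to 9.54 FPKM in replicate 1 and from 14.06 to 17.33 FPKM in replicate 2. WT controls ran from 1.21 to 2.73 FPKM in Smad3 and from 6.44 to 13.13 FPKM in Skil, ranges that overlap with replicate 1 and not with replicate 2. Results for the 10 genes that rest on this genotype are therefore also given without 1 of its replicates.

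The bases before the start of transcription are shown for genes with lower levels under IL-4, from the RefSeq promoter table (GRCm38.p6). Windows of 5 of the 10 genes were searched, with 10 start sites in all. These were Tgif1 with 5, Tgfbr1 with 2, and Tgfb1, Tgfbr2 and Smad3. No window of Thbs1, Smad2, Smad4, Smad7 or Skil was searched, which does not mean that RefSeq lacks starts for them. The 250 bases before each start were searched on both strands for the SMAD binding sequences CAGACA and GTCTAGAC and for the STAT palindrome TTCNNNGAA, where N is any base, and its wider form with 4 bases between TTC and GAA. Capitals mark a match, read 5′ to 3′ on the strand of the gene, where TGTCTG is CAGACA on the other strand. A start whose window overlapped an annotated exon is shown only as a short stretch around the match.
Tgif1, second start (chr17:70851735-70851984, minus strand): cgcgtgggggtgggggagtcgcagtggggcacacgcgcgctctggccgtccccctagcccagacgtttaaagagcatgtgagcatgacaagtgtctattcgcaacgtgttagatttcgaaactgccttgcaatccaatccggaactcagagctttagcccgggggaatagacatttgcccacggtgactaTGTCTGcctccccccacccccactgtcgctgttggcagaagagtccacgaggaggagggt
Tgif1, first start, around the match 201 bases before it (chr17:70853718-70853743, minus strand): ttccgccgcgCAGACAgcggatagaa
Tgif1, start number 5, around the match 183 bases before it (chr17:70846942-70846970, minus strand): ttaatagcatTTCTTAGAAgtgttctaaa
Tgfbr1, first start (chr4:47352972-47353221, plus strand): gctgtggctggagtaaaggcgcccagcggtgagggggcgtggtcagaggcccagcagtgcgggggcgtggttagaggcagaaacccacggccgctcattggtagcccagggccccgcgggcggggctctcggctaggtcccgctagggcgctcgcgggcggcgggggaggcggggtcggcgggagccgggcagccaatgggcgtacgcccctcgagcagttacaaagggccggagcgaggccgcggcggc
Tgfbr2 (chr9:116175364-116175613, minus strand): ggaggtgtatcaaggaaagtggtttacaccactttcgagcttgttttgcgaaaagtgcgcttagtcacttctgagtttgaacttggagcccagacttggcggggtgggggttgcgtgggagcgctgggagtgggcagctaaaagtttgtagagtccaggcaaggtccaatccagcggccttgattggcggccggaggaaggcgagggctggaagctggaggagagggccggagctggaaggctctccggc
Smad3 (chr9:63757995-63758244, minus strand): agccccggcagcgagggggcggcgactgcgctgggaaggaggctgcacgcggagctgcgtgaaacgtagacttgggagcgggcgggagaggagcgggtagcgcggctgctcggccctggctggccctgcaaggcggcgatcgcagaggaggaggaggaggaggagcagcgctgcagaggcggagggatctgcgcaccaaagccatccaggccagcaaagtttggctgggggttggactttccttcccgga

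CAGACA was found at 3 of the 10 starts, the first and second start of Tgif1 and the second start of Tgfbr1. It was found at 17.1% of the 32851 promoter windows of this length that were searched. TTCNNNGAA was found at 1 of the 10, start number 5 of Tgif1, and at 7.02% of all windows. The wider palindrome and GTCTAGAC were in none of the 10 windows, and in 5.85% and 0.167% of all windows. The windows of Tgfbr2, Smad3 and the first start of Tgfbr1 held none of these letters. A match is only a match of letters.

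Before stimulation the ligand was the most abundant of the 10 transcripts. In WT at 0 h Tgfb1 averaged 118.0 ± 14.2 FPKM (SD, n = 4), followed by Tgif1 at 47.2 ± 7.11 FPKM and Tgfbr2 at 39.8 ± 1.79 FPKM. Tgfbr1 at 22.3 ± 3.56 FPKM, Smad4 at 15.4 ± 0.76 FPKM, Thbs1 at 13.2 ± 2.44 FPKM and Skil at 9.52 ± 1.46 FPKM came next. The receptor-activated SMADs were scarcer, Smad2 at 5.88 ± 0.432 FPKM and Smad3 at 2.38 ± 0.227 FPKM, and Smad7 was at 0.563 ± 0.0527 FPKM. In this order Tgif1 overlapped with Tgfbr2, Smad4 with Thbs1, and Thbs1 with Skil, whereas the other neighbours were separated in every sample.

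Thbs1, the gene of the activator (chromosome 2, 118111922 to 118127133, plus strand, mm10), showed the widest difference under IL-4. At 3 h the WT controls were at 33.26, 34.81, 29.31 and 33.26 FPKM and the IL-4 samples at 1.97, 1.82, 1.66 and 1.59 FPKM. At 6 h the controls were at 45.66, 38.64, 45.11 and 40.54 FPKM and the IL-4 samples at 4.96, 4.27, 4.63 and 4.45 FPKM. At 24 h the controls were at 65.1, 54.89, 81.95 and 87.2 FPKM and the IL-4 samples at 4.2, 2.62 and 3.12 FPKM. No IL-4 sample reached any control at these times, and the ratio of the means, control over IL-4, was 18.6 at 3 h, 9.28 at 6 h and 21.8 at 24 h.

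On the log2(FPKM + 1) scale, which understates the change of low values, the difference of Thbs1 was -0.48 at 1 h, -3.61 at 3 h and -2.96 at 6 h, each ± 0.19 (SE), and reached -4.08 ± 0.2 at 24 h. The groups were already separate at 1 h, with controls from 7.18 to 8.48 FPKM and IL-4 samples from 4.64 to 5.81 FPKM. Every IL-4 sample at every time also lay below all 4 samples at 0 h (11.09 to 16.76 FPKM). An antisense gene, Gm29233, overlaps exons of Thbs1 in the annotation, and the library kit as described does not mark strand. Reads from the stretch that the pair shares cannot be told apart. Of the 50-base pieces of Thbs1 transcripts, 1.89% also occur, on either strand, in annotated transcripts of other genes. In bulk RNA, fewer cells of a type and less RNA per cell cannot be told apart either. The summed platelet list, nearly all Pf4, was 223.78 to 281.8 FPKM in WT controls at 24 h and 105.43 to 119.48 FPKM with IL-4, and the summed macrophage list was 3575 to 4075 FPKM and 2621 to 2649 FPKM. The summed granulocyte list was likewise lower with IL-4, 414.98 to 565.93 FPKM in these controls and 201.58 to 295.44 FPKM with IL-4, and the T and B cell list was 2.59 to 5.47 FPKM and 1.23 to 1.52 FPKM. At 3 h the platelet list was 167.68 to 236.37 FPKM in WT controls and 149.72 to 201.24 FPKM with IL-4. The granulocyte list was 299.0 to 414.74 and 334.26 to 411.64 FPKM, and the T and B cell list 4.87 to 5.54 and 3.68 to 5.61 FPKM. These lists overlapped at 3 h, whereas the macrophage list did not, at 3749 to 4072 FPKM and 3161 to 3674 FPKM. The part of these shifts in the difference was not tested.

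The control level of Thbs1 itself differed with time in culture. Against 0 h the log2 difference was -0.69 at 1 h and 1.25, 1.62 and 2.35 at 3, 6 and 24 h, each ± 0.19 (SE), and at the last time the mean was 5.46 times that at 0 h. The controls at 1, 3, 6 and 24 h are the same samples that the IL-4 groups were set against, so these values are a description. The WT IL-4 samples ran from 1.59 to 5.81 FPKM over the same hours.

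**Figure D1:**
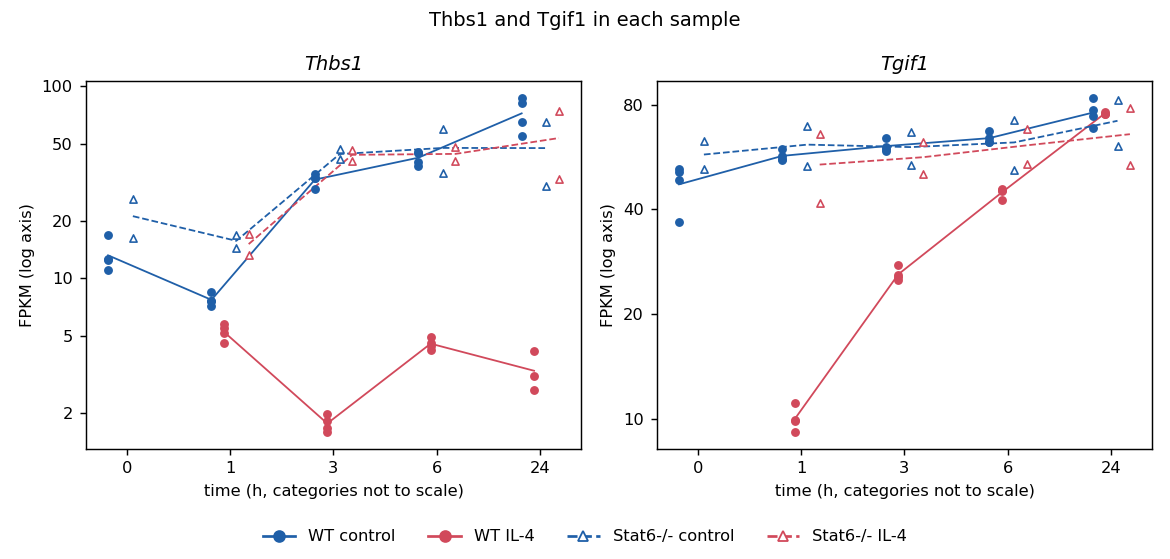
FPKM (log axis) of Thbs1 and Tgif1 in every sample against time, with filled circles for WT, open triangles for Stat6-/-, blue for control and red for IL-4; lines join group means. The WT IL-4 samples of Thbs1 sit between 1.59 and 5.81 FPKM at all times, those of Tgif1 start between 9.15 and 11.07 FPKM at 1 h and reach 75.29 to 76.15 FPKM at 24 h, and the Stat6-/- IL-4 means stay near their controls.

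Tgfb1 (chromosome 7, 25687002 to 25704996, plus strand), which encodes the ligand TGF-β1, showed no such difference. WT controls ran from 98.73 to 145.97 FPKM over the 5 times and the IL-4 samples from 108.52 to 156.96 FPKM, and the groups overlapped at every time. The log2 difference was -0.11 at 1 h, 0.01 at 3 h and 0.09 at 6 h, each ± 0.12 (SE), then -0.04 ± 0.13 at 24 h.

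The receptor genes followed different time courses. Tgfbr1, the type I receptor (chromosome 4, 47353305 to 47414924, plus strand), overlapped between groups at 1 h. At 6 h its controls were at 26.22, 22.08, 21.48 and 20.46 FPKM and its IL-4 samples at 11.25, 11.33, 8.3 and 8.7 FPKM, a log2 difference of -1.12 ± 0.13. The groups were also separate at 3 h (-0.83 ± 0.13) and overlapped again at 24 h (-0.3 ± 0.14). The lower level of Tgfbr1 was thus seen at 3 and 6 h, with a 24 h mean of 16.7 FPKM against 20.8 FPKM in controls.

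Tgfbr2, the type II receptor (chromosome 9, 116087695 to 116175363, minus strand), was slightly higher at 1 h, with IL-4 samples from 44.81 to 47.76 FPKM above controls from 39.17 to 44.06 FPKM. At 3 h the groups overlapped. At 6 h the log2 difference was -0.55 ± 0.1, and at 24 h the controls were at 37.02, 35.81, 38.95 and 35.95 FPKM and the IL-4 samples at 13.88, 16.54 and 16.67 FPKM, a difference of -1.19 ± 0.11. Tgfbr2 was therefore lowest at the last time, when Tgfbr1 again overlapped with its controls.

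Of the SMADs that the receptors phosphorylate, Smad3 was lower and Smad2 higher with IL-4. Smad3 (chromosome 9, 63646767 to 63757994, minus strand) overlapped at 1 h. At 24 h its controls were at 2.31, 2.11, 2.04 and 1.21 FPKM and its IL-4 samples at 0.28, 0.26 and 0.22 FPKM. The IL-4 samples were below every control at 3, 6 and 24 h, and the ratio of the means was 3.28, 2.77 and 7.6. The log2 differences were -0.94 ± 0.31, -0.83 ± 0.31 and -1.2 ± 0.33 with the spread shared over all 53 samples, and with the spread of the compared samples alone the SEs were 0.06, 0.09 and 0.13. The shared spread of Smad3 and Skil includes the gap between the Stat6-/- replicates.

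Smad2 (chromosome 18, 76241701 to 76311747, plus strand) was the only gene of the 10 with IL-4 samples above every control at all 4 times. At 6 h its controls were at 5.85, 5.52, 5.66 and 5.93 FPKM and its IL-4 samples at 7.85, 7.83, 7.76 and 7.43 FPKM. The differences were small, with a log2 difference of 0.21 at 1 h, 0.3 at 3 h and 0.37 at 6 h, each ± 0.04 (SE), then 0.17 ± 0.05 at 24 h. The 15 IL-4 samples (6.59 to 7.85 FPKM) were all above the 20 WT controls (5.31 to 6.24 FPKM).

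Smad4, the common partner (chromosome 18, 73639013 to 73703741, minus strand), kept within 14.29 to 17.68 FPKM in all WT samples. Its IL-4 samples were just below the controls at 3 h (-0.06 ± 0.05) and 24 h (-0.09 ± 0.05) and overlapped at 1 and 6 h. Smad7, the inhibitory SMAD (chromosome 18, 75367365 to 75395934, plus strand), was under 1 FPKM in all samples but 1, the 24 h IL-4 sample of replicate 2 at 1.21 FPKM, and entered the fit only through that sample. At 24 h its IL-4 samples were at 1.21, 0.87 and 0.68 FPKM and its controls at 0.72, 0.62, 0.67 and 0.62 FPKM, so the groups overlapped.

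**Figure D2:**
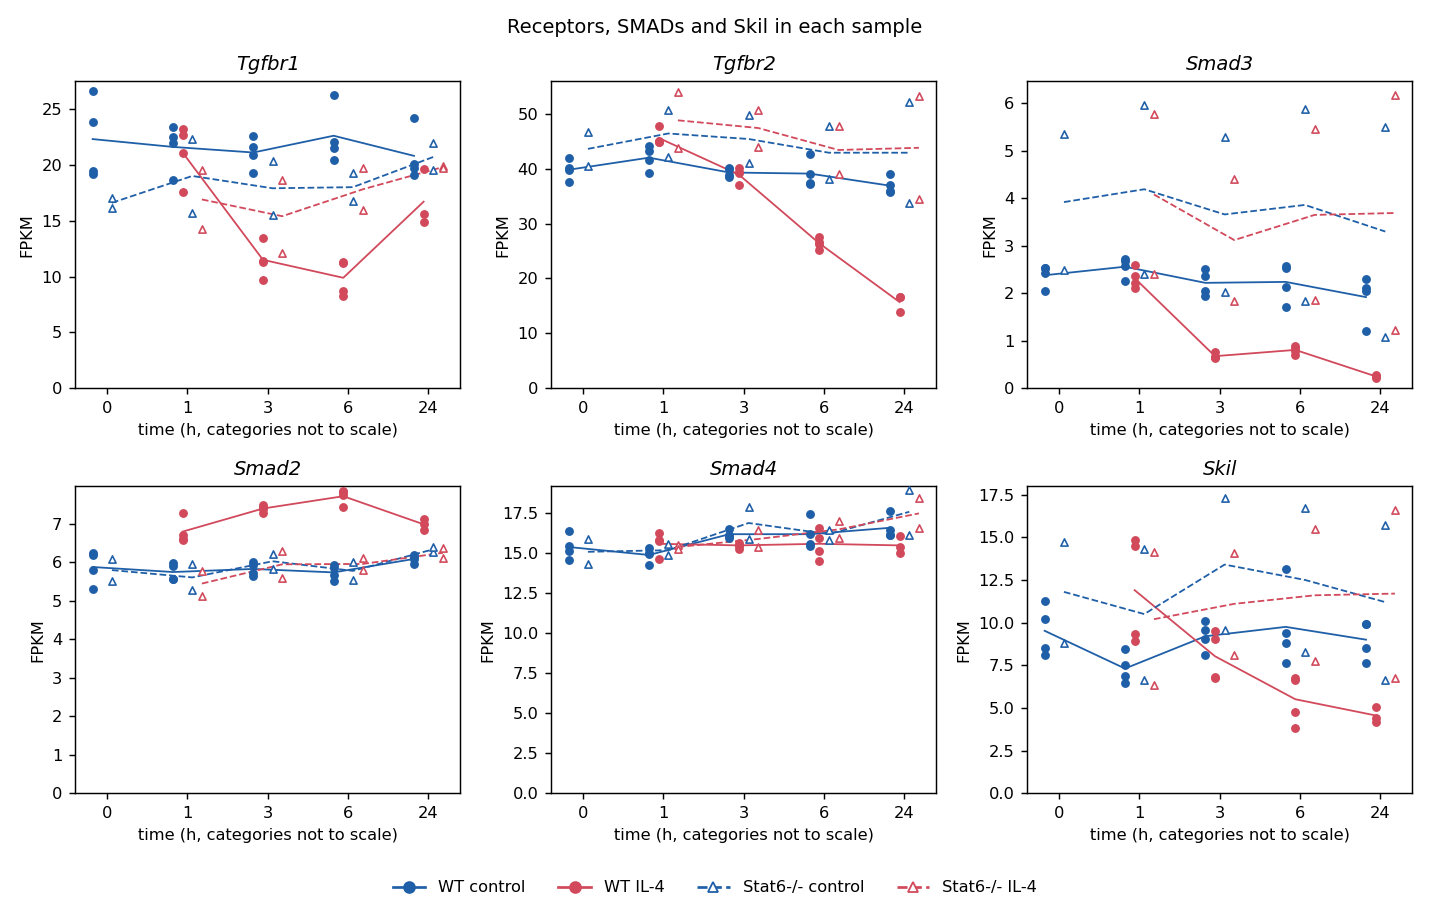
FPKM (linear axes from 0) of Tgfbr1, Tgfbr2, Smad3, Smad2, Smad4 and Skil in every sample against time; filled circles are WT, open triangles Stat6-/-, blue control and red IL-4, and lines join group means. Tgfbr1 is lowest with IL-4 at 6 h, Tgfbr2, Smad3 and Skil at 24 h, Smad2 lies above its controls at all 4 times, and the open triangles of Smad3 and Skil form a pair of levels, one for each Stat6-/- replicate.

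The corepressor gene Tgif1 (chromosome 17, 70844205 to 70853532, minus strand) had the largest difference of the 10 genes at 1 h. Here the WT controls were at 59.58, 55.28, 57.11 and 55.84 FPKM and the IL-4 samples at 9.15, 9.81, 9.89 and 11.07 FPKM, a log2 difference of -2.4 ± 0.12. The difference was -1.2 ± 0.12 at 3 h and -0.51 ± 0.12 at 6 h, and at both times no IL-4 sample reached the lowest control. At 24 h the IL-4 samples were at 76.15, 75.29 and 75.35 FPKM, inside the range of the controls (68.39 to 83.77 FPKM). Tgif1 thus returned to its control level while Thbs1 did not.

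Skil (chromosome 3, 31095058 to 31122923, plus strand) differed in opposite directions early and late. At 1 h the controls were at 8.44, 7.5, 6.86 and 6.44 FPKM and the IL-4 samples at 14.86, 14.46, 9.31 and 8.95 FPKM, so all were higher but replicates 1 and 2 more so than 3 and 4. The groups overlapped at 3 h. IL-4 samples were below every control at 6 h (-0.73 ± 0.27) and at 24 h, when the controls were at 9.94, 9.92, 8.52 and 7.61 FPKM and the IL-4 samples at 5.07, 4.4 and 4.2 FPKM (-0.84 ± 0.29).

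Counted together, the genes whose IL-4 samples all lay under the lowest control numbered 2, 5, 7 and 5 of 10 at 1, 3, 6 and 24 h. Over all 11146 loci that reached 1 FPKM in any sample, 7.81%, 18.1%, 22.3% and 37.1% were placed so. All IL-4 samples lay over the highest control for 3, 1, 1 and 1 of the 10, and for 8.27%, 20.8%, 23.8% and 27.4% of all loci. At least 2-fold lower on the log2(FPKM + 1) scale, without overlap, were 1 gene at 1 h (Tgif1), 2 at 3 h (Thbs1 and Tgif1), 2 at 6 h (Thbs1 and Tgfbr1) and 3 at 24 h (Thbs1, Smad3 and Tgfbr2), beside 0.395%, 1.33%, 2.46% and 4.82% of all loci. The genes were chosen with these contrasts known, so nothing is read from the counts.

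In Stat6-/- BMDMs no difference under IL-4 passed the threshold in any of the 10 genes, which were chosen with this genotype in view. Only Smad7 at 1 and 6 h had both IL-4 samples above both controls. Its values were under 1 FPKM, at 1 h 0.5 and 0.45 FPKM with IL-4 against 0.41 and 0.42 FPKM. The share of all loci placed so was not computed, and with 2 samples per group nothing is read from this placement. Of 40 limma tests, 10 genes at 4 times, 0 passed at adjusted p under 0.05 and 0 had an unadjusted p under 0.05, and the study's kind of analysis of variance with Tukey adjustment also gave 0. No locus of the whole table passed at any time (0%). Of all 11146 loci only 51, 131, 88 and 37 had an unadjusted p under 0.05 at 1, 3, 6 and 24 h. Both counts of 0 therefore say nothing particular to these genes. Thbs1 at 3 h was at 47.16 and 41.65 FPKM without IL-4 and at 46.88 and 41.04 FPKM with it, a log2 difference of -0.01 with a 95% interval from -0.55 to 0.52. Tgif1 at 1 h was at 69.68 and 53.15 FPKM without IL-4 and at 65.94 and 41.58 FPKM with it, a difference of -0.21 with an interval from -0.56 to 0.14.

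Smad3 in Stat6-/- at 24 h was at 1.09 and 5.51 FPKM without IL-4 and at 1.22 and 6.17 FPKM with it, an interval from -0.77 to 1.0 that is wide because the replicates differ. Tgfbr2 at 24 h had an interval from -0.27 to 0.32, Tgfbr1 at 6 h from -0.4 to 0.36, and Smad2 at 6 h from -0.09 to 0.16. The difference between the genotypes was not tested for these genes, since they were chosen with it in view. Leaving out either replicate also left 0 tests passing.

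**Figure D3:**
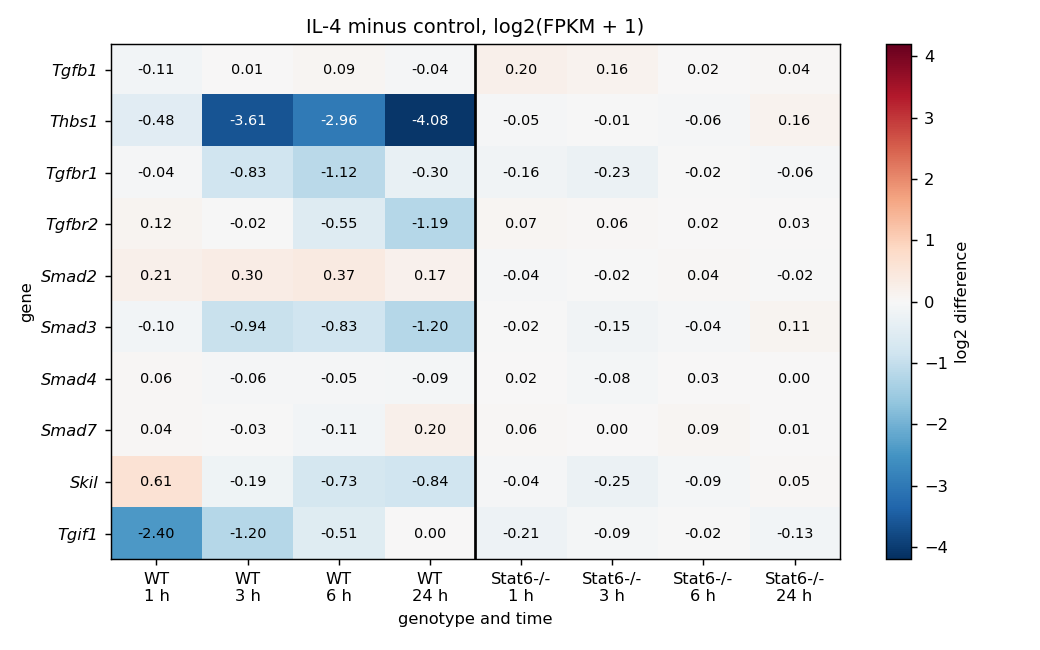
Heat map of the difference IL-4 minus control on the log2(FPKM + 1) scale for the 10 genes (rows) at 1, 3, 6 and 24 h in WT (left of the line) and Stat6-/- (right); blue is lower and red higher with IL-4. WT values run from -4.08 (Thbs1, 24 h) to 0.61 (Skil, 1 h) and Stat6-/- values from -0.25 to 0.2.

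Time in culture without IL-4 was compared for all 10 genes. In WT, 5 of 40 limma tests passed, Thbs1 at all 4 times and Tgif1 at 24 h, whose mean was 75.9 FPKM against 47.2 FPKM at 0 h (log2 difference 0.68 ± 0.12). Of all loci 2.0%, 0.144%, 0.135% and 17.2% passed at 1, 3, 6 and 24 h. Without WT replicate 1 or 3 the count was 3, and without either Stat6-/- replicate, whose spread enters the shared estimate, it was 8. These controls are shared with the IL-4 differences on which the genes were chosen, so nothing is read from the counts.

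The Stat6-/- controls are other samples than the WT controls, although the fit shares 1 estimate of the spread with WT. Their levels were in view when the genes were chosen, and this test was added after the data were seen. Nothing is read from its count either. Here 1 of 40 tests passed, Thbs1 at 24 h with a rise of 1.08 ± 0.27 (adjusted p = 0.0401, limma), beside 0.0807%, 0%, 0% and 0.718% of all loci at 1, 3, 6 and 24 h. Thbs1 was at 16.3 and 25.83 FPKM at 0 h, 47.16 and 41.65 FPKM at 3 h, 60.15 and 35.5 FPKM at 6 h and 65.14 and 30.22 FPKM at 24 h. Both samples at 3, 6 and 24 h were above both at 0 h, although the differences at 3 h (1.07 ± 0.27, adjusted p = 0.474) and 6 h (1.13 ± 0.27, adjusted p = 0.483) did not pass. The 6 h difference passed with a replicate block (adjusted p = 0.036, limma) and without the filter on low values (adjusted p = 0.0352). Without replicate 1 the 24 h difference was 0.22 (adjusted p = 0.583) and no test passed, and without replicate 2 it was 1.93 (adjusted p = 1.3e-05) and 4 tests passed.

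The genotypes were compared in controls, with each replicate number averaged over its 5 times, 4 WT means against 2 Stat6-/- means. Of the 10 genes 0 passed (limma), beside 0.0179% of all loci. An unadjusted p under 0.05 was found for 2 of the 10, beside 1465 of all 11146 loci. Thbs1 averaged 33.7 FPKM in WT and 35.3 FPKM in Stat6-/- (log2 difference 0.29 ± 0.08, adjusted p = 0.227, limma). This average hides differences by time. At 1 h the Stat6-/- controls were at 14.49 and 16.82 FPKM, above the WT controls (7.18 to 8.48 FPKM). At 3 h they were at 47.16 and 41.65 FPKM, again above WT (29.31 to 34.81 FPKM). At 0, 6 and 24 h the genotypes overlapped, with 24 h means of 47.7 FPKM in Stat6-/- and 72.3 FPKM in WT. The split by time is a description. Tgfbr1 averaged 21.7 and 18.5 FPKM (-0.22 ± 0.08, adjusted p = 0.339), and Smad3 2.26 and 3.78 FPKM (0.44 ± 0.31, adjusted p = 0.638), the latter with replicate means of 1.97 and 5.6 FPKM in Stat6-/-. Without Stat6-/- replicate 1, replicate 2 stands alone for its genotype and is assumed to vary like the WT means. In that fit the log2 difference was 1.02 for Smad3, 0.76 for Skil, 0.32 for Tgfbr2 and -0.35 for Tgfbr1. No test is read from a single replicate. The summed granulocyte list was 278.69 to 565.93 FPKM in WT controls and 533.42 to 989.99 FPKM in Stat6-/- controls, and its part was not tested.

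Beyond these 10 genes the pathway was read from 5 lists of 89 further genes, of which 88 were in the tables and 54 passed the filter on low values. These 54 were tested in WT. The lists were also made with earlier results of these data known, so these tests are not independent of that choice. With IL-4, 2 rose and 5 fell at 1 h, 5 rose and 5 fell at 3 h, 4 rose and 4 fell at 6 h, and 8 rose and 4 fell at 24 h, by at least 2-fold at adjusted p under 0.05 (limma). Over all loci 1.09%, 2.61%, 3.18% and 3.91% rose and 0.395%, 1.27%, 2.36% and 4.58% fell at these times. The median log2 difference of the 54 genes was 0.02, -0.03, -0.11 and -0.03, beside -0.02, 0.01, 0.0 and -0.07 over all loci. In all, 19 of the 54 were called at some time, beside 12.8% of all loci. Of these 19, 2 reached 1 FPKM only in WT IL-4 samples and so entered the test through the group where they were high. None of the 54 passed in Stat6-/- (limma, 0 with an unadjusted p under 0.05), and neither did any locus of the whole table, so nothing is read from this count.

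**Figure D4:**
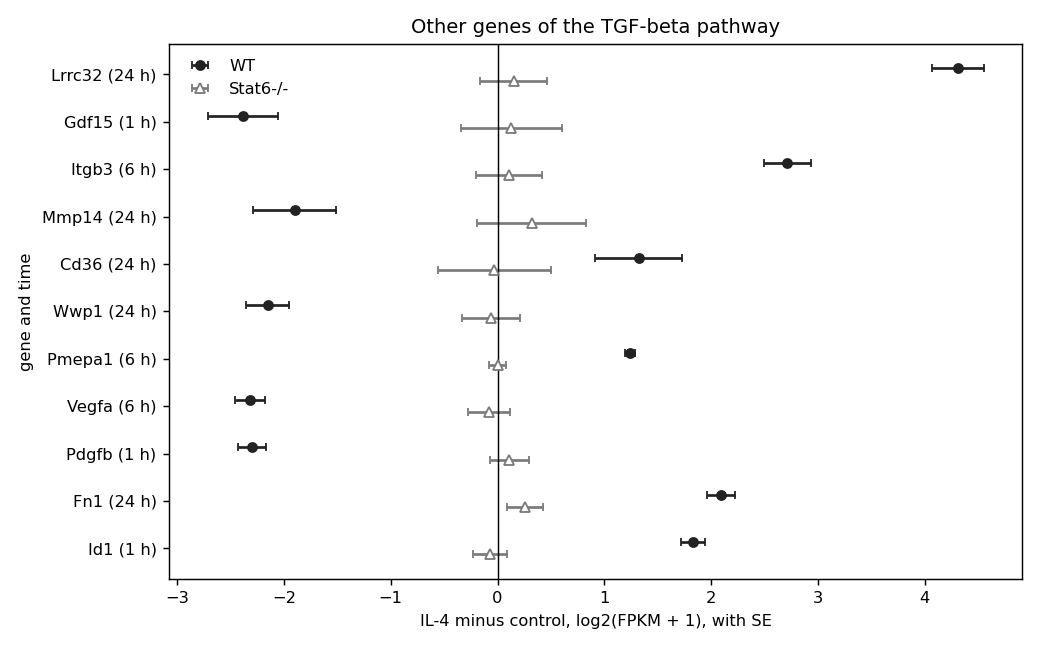
Difference IL-4 minus control on the log2(FPKM + 1) scale, with SE bars from the limma fit, for 11 further pathway genes at the time of their largest change; filled circles are WT and open triangles Stat6-/-. WT values run from -2.38 (Gdf15) to 4.31 (Lrrc32), and the Stat6-/- values from -0.08 to 0.32.

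Among ligands and the latent complex, 2 of 4 tested genes were called at some time, beside 12.8% of all loci. Lrrc32 encodes GARP, a cell-surface protein that tethers latent TGF-β. It rose from 0.2, 0.16, 0.21 and 1.0 FPKM to 29.4, 22.53 and 26.08 FPKM at 24 h, a log2 change of 4.31 ± 0.24 (adjusted p = 6.38e-18, limma), and was called at 3 and 6 h too. Gdf15, a distant member of the ligand family, fell at 1 h from 8.41, 5.55, 9.27 and 9.98 FPKM to 0.76, 0.47, 1.14 and 0.72 FPKM (-2.38 ± 0.33, adjusted p = 6.28e-07). In Stat6-/- at 24 h Lrrc32 was at 1.55 and 0.06 FPKM without IL-4 and at 1.88 and 0.16 FPKM with it.

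Among activators and thrombospondin-related genes, 3 of 9 were called at some time, beside 12.8% of all loci. Itgb3, the β3 chain of an integrin that can bind latent TGF-β, rose at 6 h from 1.25, 1.31, 1.83 and 2.11 FPKM to 14.89, 14.87, 16.6 and 18.03 FPKM (2.71 ± 0.22, adjusted p = 4.85e-13, limma). Cd36, a receptor for thrombospondin 1, rose at 24 h from 613.0 ± 112.0 to 1520.0 ± 87.8 FPKM (1.32 ± 0.41, limma adjusted p = 0.00594). The call did not pass with Tukey adjustment (adjusted p = 0.192) or without replicate 3 (adjusted p = 0.0672). The WT samples did not overlap, with controls from 489.09 to 755.09 FPKM and IL-4 samples from 1419.0 to 1587.06 FPKM. The shared spread of Cd36 includes the Stat6-/- replicates, at 1240.46 and 316.89 FPKM in controls at 24 h. Mmp14, a membrane-bound matrix metalloproteinase, fell at 24 h from 10.6 ± 4.32 to 1.99 ± 0.697 FPKM (-1.9 ± 0.39, adjusted p = 8.52e-05).

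None of the 8 further receptors and coreceptors tested was called at any time, though 3 passed the adjusted p alone at 3, 6 and 24 h with changes under 2-fold. Among the other SMADs and their regulators, 2 of 17 were called at some time, a share near the 12.8% of all loci. Pmepa1, an inhibitor that binds SMAD2 and SMAD3, was at 0.18, 0.18, 0.14 and 0.11 FPKM in controls at 6 h and at 1.78, 1.44, 2.02 and 1.63 FPKM with IL-4 (log2 difference 1.24 ± 0.05). No p is given for Pmepa1, which reached at most 0.26 FPKM outside the WT IL-4 samples and passed the filter through these alone. Wwp1, a ubiquitin ligase, fell at 24 h from 68.01, 81.54, 68.0 and 70.84 FPKM to 12.96, 16.11 and 17.36 FPKM (-2.15 ± 0.2, adjusted p = 2.37e-11).

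Of 16 tested genes known as targets of TGF-β or of the related BMP ligands, 12 were called at some time, in both directions. Over all loci the share was 12.8%. Fn1, the matrix protein fibronectin, rose at 24 h from 0.48 ± 0.124 to 5.31 ± 0.757 FPKM (2.09 ± 0.13, adjusted p = 5.52e-16, limma). Id1, a regulator induced by BMP ligands, averaged 0.416 ± 0.0649 FPKM in controls and 4.11 ± 0.889 FPKM with IL-4 at 1 h (1.83 ± 0.11). Id1 too passed the filter only through WT IL-4 samples, with at most 0.73 FPKM elsewhere. Id2 and Id3, called but not among the 4 named genes of this list, went the other way at 1 h (-1.45 ± 0.17 and -1.15 ± 0.15). At 24 h Id2 was higher (1.25 ± 0.19) and Id3 lower (-1.5 ± 0.17). Vegfa, the angiogenic growth factor, fell at 6 h from 13.5 ± 0.924 to 1.91 ± 0.259 FPKM (-2.32 ± 0.14, adjusted p = 7.42e-17). Pdgfb, a growth factor for mesenchymal cells, fell at 1 h from 29.4 ± 3.2 to 5.18 ± 0.831 FPKM (-2.3 ± 0.13, adjusted p = 2.9e-17).

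Over all 54 further genes, the WT response was also compared with that of Stat6-/- by the interaction term in limma. The responses differed by at least 2-fold at adjusted p under 0.05 for 7, 8, 7 and 10 genes at 1, 3, 6 and 24 h, beside 1.25%, 3.48%, 4.41% and 6.85% of all loci. These counts include Id1 at 1 h and Pmepa1 at 6 and 24 h, which passed the filter only through WT IL-4 samples. Without either Stat6-/- replicate the counts were 6 to 8, 8 to 9, 8 to 9 and 11 to 12. The 11 named genes were picked for their WT change, which this difference contains, so no test of it is given for them.

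The loci whose pattern was most like that of Thbs1, Tgif1 and Smad3 were found by Pearson's r over the 18 group means, among 8390 loci whose highest group mean was at least 5 FPKM. The points share control samples and genotype, so r is only a description. For Thbs1 they were Stk17b (r = 0.973), Pogz (r = 0.97) and Rybp (r = 0.96). Stk17b was at 35.0 FPKM in WT controls and 9.41 FPKM with IL-4 at 3 h, and at 46.3 and 11.3 FPKM at 24 h, whereas Pogz spanned only 3.6 to 5.26 FPKM in the WT means. For Tgif1 they were Pdgfb (r = 0.948), Zfp36l2 (r = 0.942) and Fam212a (r = 0.927), and Zfp36l2 was at 98.2 FPKM in controls and 22.7 FPKM with IL-4 at 1 h. For Smad3 they were Gm6377 (r = 0.967), Vav1 (r = 0.965) and Pilra (r = 0.963), and Vav1 was at 51.6 and 34.5 FPKM at 24 h.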

How the data were processed

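Poly-A RNA of 53 BMDM samples was sequenced as paired reads. Per the labels, the authors aligned reads with TopHat2 (2.0.7) to mm10 and computed FPKM with Cufflinks (2.0.2), and deposited FPKM for 23847 loci per sample; the annotation is not given in the sources used here. The 11146 loci that reached 1 FPKM in any sample were analysed as log2(FPKM + 1) with limma (3.58.1, R 4.3.3): a mean per group over all 53 samples, an intensity trend, two-sided tests, Benjamini-Hochberg adjustment over all loci. A passed test has adjusted p under 0.05, and a call also at least a 2-fold change. Genotypes were compared on replicate means. The FPKM files hold no counts, so no count model was used. Whole-number steps in the lowest values gave the relative depth within 2% for 99.2% of sample pairs per locus. The scripts were tested on simulated data. Coordinates are those of the deposited tables; gene overlaps were read from GENCODE (GRCm38) and promoters from RefSeq.

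The 10 genes, the further lists and the tests were chosen with earlier results of these data known. Named further genes were, per list, up to 4 called genes with the largest change whose groups did not overlap. The test of Stat6-/- controls over time was added after the data were seen. The replicate numbers were not used as a block in the main fit, since the labels do not say what they mark. Deviations of same-numbered samples were correlated above 0.1 in 81.6% of pairs in WT and in 100% of pairs in Stat6-/-. Intervals without a block therefore include the gap between the Stat6-/- replicates.

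A marker of the platelet list, other than those named, is not reported here and was left out of its sum.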

Additional observations from a re-analysis of the deposited data

Results flagged for a closer look

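In groups of 4 samples, the sample farthest from the others was compared with Dixon's 95% limit, which chance passes in about 1 of 20 groups. Of 97 groups, 2 passed. Tgfbr2 in WT replicate 4 at 1 h of IL-4 was at 47.76 FPKM, the other samples being between 44.81 and 45.07 FPKM. Lrrc32 in the 24 h WT control of replicate 4 was at 1.0 FPKM, the others being between 0.16 and 0.21 FPKM, and the same sample had the lowest Smad3 of its group (1.21 FPKM).

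The differences between the WT and the Stat6-/- response to IL-4 follow for 10 of the 11 named further genes. Gene and time were picked for the largest WT change, which this difference contains, so the values are a description without a test. The WT log2 change exceeded that of Stat6-/- by 4.15 ± 0.39 (SE) for Lrrc32 at 24 h, 2.6 ± 0.38 for Itgb3 at 6 h, 1.9 ± 0.19 for Id1 at 1 h, 1.83 ± 0.22 for Fn1 at 24 h and 1.24 ± 0.09 for Pmepa1 at 6 h. The difference WT minus Stat6-/- was -2.5 ± 0.57 for Gdf15 at 1 h, -2.41 ± 0.22 for Pdgfb at 1 h, -2.24 ± 0.24 for Vegfa at 6 h, -2.22 ± 0.64 for Mmp14 at 24 h and -2.1 ± 0.33 for Wwp1 at 24 h. For the 10 genes of the main set this difference is part of what they were chosen on and was not tested.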

How the results depend on the processing

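The counts of genes at least 2-fold lower without overlap in WT were 1, 2, 2 and 3 at 1, 3, 6 and 24 h under both other scalings and without each WT replicate, and with a pseudocount of 0.1 they were 3 at 3 and 6 h. Without a replicate, the further pathway genes called in WT numbered 7 at 1 h, 10 at 3 h, 8 to 9 at 6 h and 11 to 12 at 24 h. In the report they number 7, 10, 8 and 12 at 1, 3, 6 and 24 h. With a filter at 5 FPKM in 1 sample, which tests fewer genes, they numbered 5, 6, 5 and 8, and with a pseudocount of 0.1 they numbered 8, 14, 12 and 13. The 10 genes passed 0 tests with IL-4 in Stat6-/- under every alternative run, replicate block included (0). Tests passed by WT controls over time ran from 3 to 8 without a replicate and were 9 with a replicate block. Tests passed between genotypes were 0 without each WT replicate and 2 with all 30 control samples counted as independent. In the latter fit 2213 of all 11146 loci passed. Tests passed by Stat6-/- controls over time ran from 0 to 4 without a replicate, and were 4 with a replicate block and 2 without a filter on low values. The alternatives for Stat6-/- controls, and for WT controls and the further genes without a Stat6-/- replicate, were added after seeing the data. The cause of these shifts was not tested. In WT, 29 of 35 samples, and in Stat6-/- all 18, correlated best with samples of their own number, a hint from the data and not from the labels. Of the 280 recomputed WT differences of the 10 genes, 262 moved by less than the spread between replicates; with a pseudocount of 0.1 the 24 h difference was -4.41 for Thbs1 and -2.48 for Smad3. Of 130 recomputed values of the further genes 128 kept their call. FPKM gives no counting error, so Smad3 and Smad7, near or under 1 FPKM, are the least precise.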
